A study of Mus musculus with 2 samples.

Results

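The 10 genes described here encode the contractile apparatus of smooth muscle: Acta2, Actg2, Tagln, Cnn1, Myl9, Lmod1, Myh11, Smtn, Tpm1 and Tpm2. They were taken by name from tables of 49583 gene symbols, and all 10 were found. The tables come from cultured Nestin+ cells of the heart and of the bone marrow of Nestin-GFP transgenic C57BL/6 mice 7 days old, in which the promoter of the intermediate filament gene nestin drives a green fluorescent reporter. Both cultures are labelled mesenchymal stem cells and were harvested at passage 10. The heart cells grew in a mixed medium with N2 and B27 supplements, cardiotrophin-1 (4 ng/ml) and the growth factors EGF and bFGF (both 20 ng/ml). The bone marrow cells grew in another, separately published medium. Tissue and medium therefore cannot be told apart. There was 1 library per tissue, so differences have no replicate check and no test between the tissues was possible. The labels do not say whether animals were pooled or cells cloned.

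Smooth muscle shortens when myosin heads pull on filaments of actin. Calcium bound to calmodulin activates a kinase that phosphorylates the regulatory light chain of myosin, and this starts the pull. Tropomyosin lies along the actin filament, while calponin, transgelin, smoothelin and leiomodin bind, stabilise or nucleate it. Many of these genes are driven by serum response factor (SRF), which binds a DNA element called the CArG box together with coactivators of the myocardin family. Stromal cells and myofibroblasts can also switch on a subset of the set, Acta2 being the best known.

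Values are RPKM, which divide reads by gene length and library size. Depth, recovered from the values themselves, was 64872683 reads in the heart library and 53999963 in the bone marrow library. At least 1 RPKM was reached by 10642 symbols in heart and by 10608 in bone marrow. A gene was counted as higher in a library when log2((heart + 1)/(bone marrow + 1)) was at least 1 in size, a 2-fold difference, and the higher library stood at or above 5 RPKM. All log2 ratios below are on that scale, which understates the difference of low genes. Of 7659 genes at or above 5 RPKM, 579 (7.56%) were counted toward heart and 728 (9.51%) toward bone marrow. These shares are the background for the count of each gene list below, taken among its genes at that level. Setting the median ratio of abundant genes to 0, a shift of 0.15 on the log2 scale, gave 667 and 558.

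The contractile genes were lower in heart cells as a set. Of the 10, 8 reached 5 RPKM. Of these 8, 8 were counted higher in bone marrow and 0 higher in heart. Among the 7659 genes of that level, 9.51% and 7.56% were so counted. Cnn1 and Myh11 were under the 5 RPKM floor in both libraries. The log2 ratios of the 9 genes that reached 1 RPKM had a median of -2.81, and over the 11357 genes of that level it was -0.11. With the median ratio of abundant genes set to 0, Smtn left the count, which became 7. The summed RPKM of the 10 genes was 159.8 in heart and 1675 in bone marrow, 10.5-fold lower in heart. That sum was 0.0605% of all RPKM in heart against 0.595% in bone marrow. In bulk cultures, fewer cells of a contractile type and less RNA per cell cannot be told apart.

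**Figure D1:**
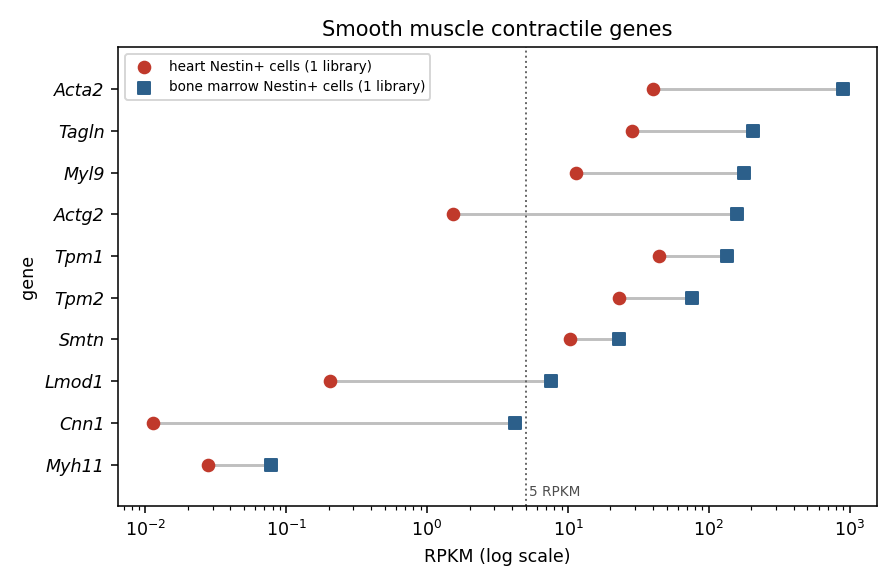
RPKM of each contractile gene on a log axis, with circles for heart and squares for bone marrow, 1 library each, and a dotted line at 5 RPKM. All 10 genes stood lower in heart, with gaps that ran from 2.24-fold for Smtn to over 100-fold for Actg2 and Cnn1.

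Promoter sequences are given here because the CArG box is the shared feature by which these genes are best known. RefSeq windows on GRCm38.p6, 250 bases before to 50 after the start, were at hand for 7 of the 10 genes, namely Acta2, Cnn1, Myl9, Lmod1, Smtn, Tpm1 and Tpm2. The CArG box reads the same way on both strands and was searched exact or with 1 base changed. The MCAT element, which TEAD factors bind, was searched as GGAATG on both strands. Myl9, Lmod1, Acta2 and Tpm1 are shown because each held 2 CArG boxes with at most 1 change. Capitals mark the CArG boxes and MCAT elements, and sequences run 5′ to 3′ in the direction of the gene. Where GENCODE models of Acta2 and Tpm1 begin farther upstream, only short stretches around the elements are given. The other windows also held annotated exon bases before the RefSeq start, among them 106 of 250 for Tpm2 and 31 for Smtn.
Myl9, plus strand, chr2:156775214-156775419: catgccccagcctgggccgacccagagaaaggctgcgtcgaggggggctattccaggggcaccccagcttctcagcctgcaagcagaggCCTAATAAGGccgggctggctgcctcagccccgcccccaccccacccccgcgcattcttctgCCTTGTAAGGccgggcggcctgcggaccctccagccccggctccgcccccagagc
Lmod1, plus strand, chr1:135324563-135324806: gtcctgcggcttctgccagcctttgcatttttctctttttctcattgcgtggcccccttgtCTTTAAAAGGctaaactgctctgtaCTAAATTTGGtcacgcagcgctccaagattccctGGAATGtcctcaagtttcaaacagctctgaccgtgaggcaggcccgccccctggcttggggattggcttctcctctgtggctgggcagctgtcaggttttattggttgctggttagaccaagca
Acta2, minus strand, chr19:34255502-34255531: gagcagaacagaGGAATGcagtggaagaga
Acta2, minus strand, chr19:34255438-34255467: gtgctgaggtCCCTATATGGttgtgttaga
Acta2, minus strand, chr19:34255388-34255417: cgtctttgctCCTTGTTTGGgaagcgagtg
Tpm1, minus strand, chr9:67049415-67049444: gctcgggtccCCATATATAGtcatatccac
Tpm1, minus strand, chr9:67049264-67049293: CCAAAAAAGTattggctgtcctaaGGAATG

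The exact CArG box stood in the Myl9 window alone, 161 to 152 bases before the RefSeq start. Both boxes of Acta2, 84 and 34 bases before the start, carried 1 change, as did those of Lmod1 and Tpm1. Counting boxes with at most 1 change, 4 of the 7 windows held at least 1, against 21.4% of 27025 promoters of the same length. The same 4 held 2 or more, against 3.74% of promoters. An MCAT element stood in 4 of the 7, those of Acta2, Lmod1, Tpm1 and Smtn, against 14.6%. The windows of Cnn1 and Tpm2 held neither element, which says only that these letters are absent from that stretch. Such matches describe letters and not binding.

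**Figure D2:**
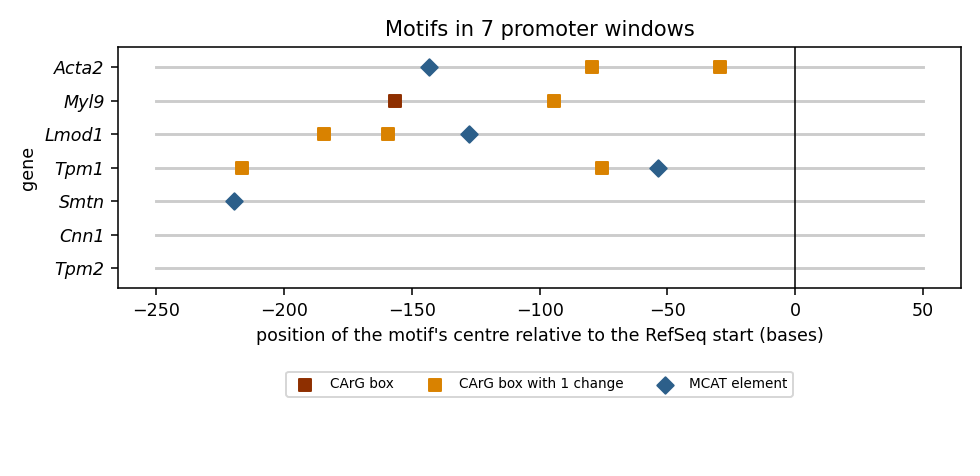
Centres of CArG boxes and MCAT elements in 7 promoter windows, in bases from the RefSeq start (0), each grey line being 1 window. Acta2, Myl9, Lmod1 and Tpm1 each hold 2 CArG boxes with at most 1 change, all before the start. An exact box stands in Myl9 alone, and Cnn1 and Tpm2 hold no mark.

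Among the filament-forming genes, both smooth muscle actins were lower in heart by wide margins. Acta2 (ENSMUSG00000035783.9, chromosome 19, 34241090 to 34255336, minus strand, coordinates as in the files, which follow GRCm38) encodes alpha-actin of vascular smooth muscle. It had 40.1 RPKM in heart against 889 in bone marrow, from 4636 and 85465 reads. That is 22.1-fold lower in heart (95% counting interval 21.5 to 22.8), with a log2 ratio of -4.44. In bone marrow Acta2 held rank 29 of all symbols by RPKM, where in heart it held rank 992. Such intervals cover counting error in these 2 libraries only.

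Actg2 (ENSMUSG00000059430.14, chromosome 6, 83512905 to 83536265, minus strand) encodes gamma-actin of enteric smooth muscle. It had 1.53 RPKM in heart against 158 in bone marrow, from 155 and 13263 reads, and a log2 ratio of -5.97. Its level was 103-fold lower in heart (counting interval 87.7 to 121). Only 4 of the 7659 genes at or above 5 RPKM had a more negative log2 ratio than Actg2. The ratio of Acta2 to Actg2 was 26.1 in heart and 5.63 in bone marrow, so Actg2 was low in heart also beside Acta2. Actin genes are close in sequence. At the length of 50 bases no stretch of the Actg2 transcripts occurred unchanged in transcripts of another gene. For Acta2, 0.326% of such stretches occurred elsewhere, in the pseudogene Actg-ps1. Reads that align with mismatches were not tested, and the aligner is not given in the sources used here.

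**Figure D3:**
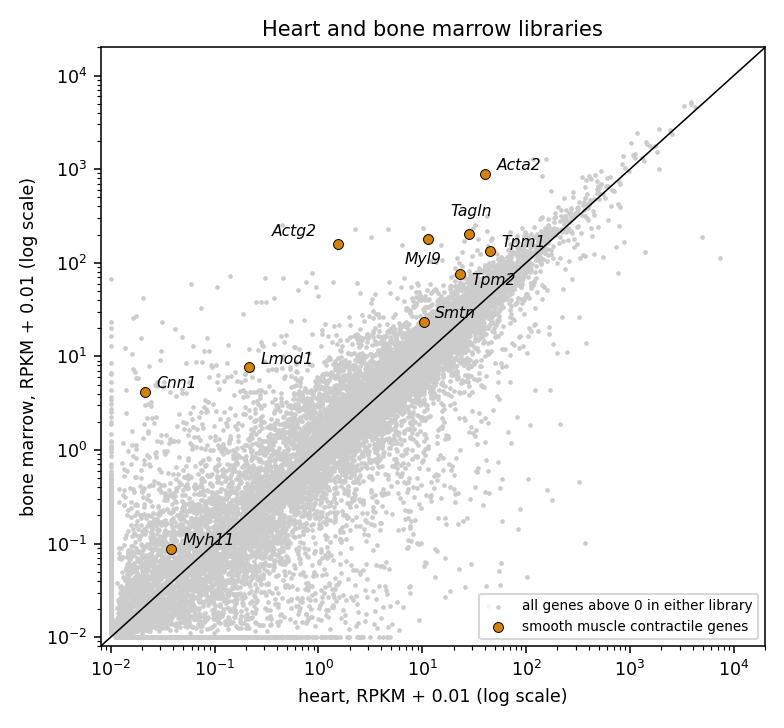
RPKM of every gene above 0 in either library, heart on the x axis and bone marrow on the y axis, both log scales after adding 0.01, with the contractile genes in orange and a line of equal values. All 10 lie above the line, the side of bone marrow, and Actg2, Acta2, Lmod1 and Cnn1 lie far from the mass of genes.

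Of the myosin genes, the light chain was well measured and the heavy chain hardly at all. Myl9 (ENSMUSG00000067818.6, chromosome 2, 156775420 to 156781658, plus strand) encodes a regulatory light chain, the subunit whose phosphorylation starts contraction. It had 11.4 RPKM in heart against 179 in bone marrow, from 862 and 11215 reads. The level was 15.6-fold lower in heart (counting interval 14.6 to 16.8), with a log2 ratio of -3.85. Myh11 (ENSMUSG00000018830.10, chromosome 16, 14194527 to 14291408, minus strand) encodes the smooth muscle myosin heavy chain, the marker most restricted to mature smooth muscle. It had 0.0279 RPKM in heart against 0.0782 in bone marrow, from 12 and 28 reads. At that depth heart over bone marrow came to 0.357 (counting interval 0.165 to 0.724), and both values are far under the floor of 5 RPKM. Its log2 ratio of -0.07 reflects the added 1 RPKM, and Myh11 was counted neither way.

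Transgelin and calponin, actin-binding proteins of a shared family, were both lower in heart, at very different levels. Tagln (ENSMUSG00000032085.5, chromosome 9, 45929619 to 45936058, minus strand), which encodes transgelin or SM22, an early smooth muscle marker, had 28.5 RPKM in heart against 205 in bone marrow. Its 3672 and 22010 reads gave a level 7.20-fold lower in heart (counting interval 6.95 to 7.46), with a log2 ratio of -2.81. A predicted gene on the opposite strand, Gm48529, covers 62.4% of the exon bases of Tagln, and Pcsk7 covers 5.43%. Pcsk7 had 6.82 RPKM in heart against 5.90 in bone marrow, and Gm48529 was not among the symbols. No source used here says whether counting used strand, so reads of these genes and of Tagln cannot be told apart. Cnn1 (ENSMUSG00000001349.5, chromosome 9, 22099216 to 22109630, plus strand) encodes basic calponin, which restrains the myosin motor and marks later differentiation. It had 0.0113 RPKM in heart, from 2 reads, and 4.18 in bone marrow, from 618. Heart over bone marrow came to 0.00269, with counting limits of 0.000326 and 0.00977. These limits overlap those of Actg2, whose ratio was 0.00973 (0.00825 to 0.0114). With 1 RPKM added, the log2 ratio of Cnn1 was -2.36, a smaller difference than the -5.97 of Actg2.

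Lmod1 (ENSMUSG00000048096.7, chromosome 1, 135324807 to 135368065, plus strand) encodes leiomodin, which nucleates actin filaments in smooth muscle. It had 0.203 RPKM in heart against 7.60 in bone marrow, from 52 and 1621 reads. This was 37.4-fold lower in heart (counting interval 28.4 to 50.4), with a log2 ratio of -2.84. Lmod1 was the member just inside the floor of 5 RPKM, and Cnn1 the one just outside. Without the added 1 RPKM the relative gaps of Lmod1 and Cnn1 thus exceeded that of Acta2, at much lower levels.

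Of the 8 genes counted higher in bone marrow, the tropomyosins and smoothelin had the smallest gaps. Tpm1 (ENSMUSG00000032366.15, chromosome 9, 67022590 to 67049406, minus strand) makes muscle and non-muscle isoforms by alternative splicing, which values per gene do not resolve. It had 44.5 RPKM in heart against 133 in bone marrow, from 18737 and 46672 reads, 2.99-fold lower in heart (counting interval 2.94 to 3.04). Its log2 ratio was -1.56. Tpm2 (ENSMUSG00000028464.16, chromosome 4, 43514711 to 43523765, minus strand), which encodes beta-tropomyosin, had 23.1 RPKM in heart against 76.2 in bone marrow. From 4366 and 11964 reads it was 3.29-fold lower in heart (counting interval 3.18 to 3.41), with a log2 ratio of -1.68. Smtn (ENSMUSG00000020439.17, chromosome 11, 3517523 to 3540612, minus strand) encodes smoothelin, an actin-binding protein of contractile smooth muscle. It had 10.3 RPKM in heart against 23.1 in bone marrow, from 2927 and 5462 reads. Smtn was 2.24-fold lower in heart, with counting limits of 2.14 and 2.35. Its log2 ratio of -1.09 was the one nearest the 2-fold rule. That call was lost with the median ratio set to 0 (-0.95) and with 5 RPKM added (-0.88). The predicted gene Gm11946, on the opposite strand, covers 16.3% of the exon bases of Smtn and had 0.0780 RPKM in heart against 0.115 in bone marrow.

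By level, the order of the 10 genes differed between the tissues. In heart Tpm1 led, followed by Acta2, Tagln, Tpm2, Myl9 and Smtn, with Actg2 next and Lmod1, Myh11 and Cnn1 under 1 RPKM. In bone marrow Acta2 led, followed by Tagln, Myl9, Actg2, Tpm1 and Tpm2, then Smtn, Lmod1, Cnn1 and Myh11. Acta2 made up 25.1% of the summed RPKM of the set in heart and 53.1% in bone marrow. The ratio of Tpm1 to Acta2 was 1.11 in heart and 0.150 in bone marrow. With 1 library per tissue there is no spread by which to judge neighbours in either order.

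Most families that hold these genes also have members used by every cell. Apart from the myosin heavy chains, the share of the contractile genes in each family was smaller in heart, all isoforms of a gene being counted together. Acta2 and Actg2 made up 5.07% of the summed actin RPKM in heart against 39.3% in bone marrow. The cytoplasmic actin genes Actb and Actg1 had 399 and 381 RPKM in heart and 844 and 770.0 in bone marrow. Their log2 ratios of -1.08 and -1.01 were past the 2-fold rule but not with the median ratio set to 0. The skeletal and cardiac muscle actin genes Acta1 and Actc1 were under 1 RPKM in both libraries, at 0.0903 and 0.0191 in heart and 0.651 and 0.0687 in bone marrow. The abundant cytoplasmic actins were thus lower in heart by about the 2-fold limit, and the smooth muscle actins by far more.

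Myl9 made up 9.78% of the regulatory light chain RPKM in heart against 47.8% in bone marrow. Its non-muscle relative Myl12a had 77.2 RPKM in heart against 172 in bone marrow, with a log2 ratio of -1.14 that became -0.995 with the median ratio set to 0. Myl12b had 28.2 and 23.3, with a ratio of 0.26. The essential light chain gene Myl6 had 349 RPKM in heart against 828 in bone marrow (log2 ratio -1.25), and Myl6b had 2.57 and 5.25 (-0.81). The heavy chain RPKM came from the non-muscle genes. Myh9 had 81.3 RPKM in heart against 194 in bone marrow (-1.24), Myh10 had 18.4 and 27.9 (-0.57), and Myh14 had 0.0106 and 0.0127. Myh11 made up 0.0280% of the family in heart and 0.0353% in bone marrow, shares that its few reads do not separate. The family sum was 2.22-fold lower in heart, inside the Myh11 counting interval of 1.38 to 6.05.

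Cnn1 and Tagln made up 10.8% of the calponin and transgelin RPKM in heart against 29.3% in bone marrow. Within this family Cnn2, another calponin gene, followed Tagln closely, at 30.8 RPKM in heart against 234 in bone marrow (log2 ratio -2.89). Cnn3 had 121 and 150.0 (-0.31), Tagln2 had 84.6 and 121 (-0.51), and Tagln3 was under 1 RPKM in both libraries (0.211 and 0.239). Tpm1 and Tpm2 made up 20.7% of the tropomyosin RPKM in heart against 36.6% in bone marrow. The other tropomyosins did not reach the 2-fold rule, Tpm3 having 43.5 RPKM in heart against 43.4 in bone marrow, and Tpm4 having 215 and 319.5 (log2 ratio -0.57). Tmod3, a tropomodulin that caps actin filaments, had 11.6 RPKM in heart against 18.1 in bone marrow (-0.60).

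The remaining relatives were under 1 RPKM in both libraries. Tmod1 had 0.648 RPKM in heart against 0.0375 in bone marrow, and Tmod2 had 0.611 and 0.896. Tmod4 had 0.0359 and 0.0431, and Smtnl2, a smoothelin-like gene, had 0.0242 and 0.0485. The striated muscle leiomodin gene Lmod3 had 0.00696 in heart and was listed at 0 in bone marrow. Lmod2 and Smtnl1 were listed at 0 in both libraries. Of the 25 relatives, the 2-fold rule took 0 toward heart and 6 toward bone marrow, and 8 that reached 5 RPKM did not meet it. The median log2 ratio was -0.70 over the 14 that reached 1 RPKM. With the median ratio set to 0, Cnn2, Myl6 and Myh9 remained as 3 counted higher in bone marrow.

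**Figure D4:**
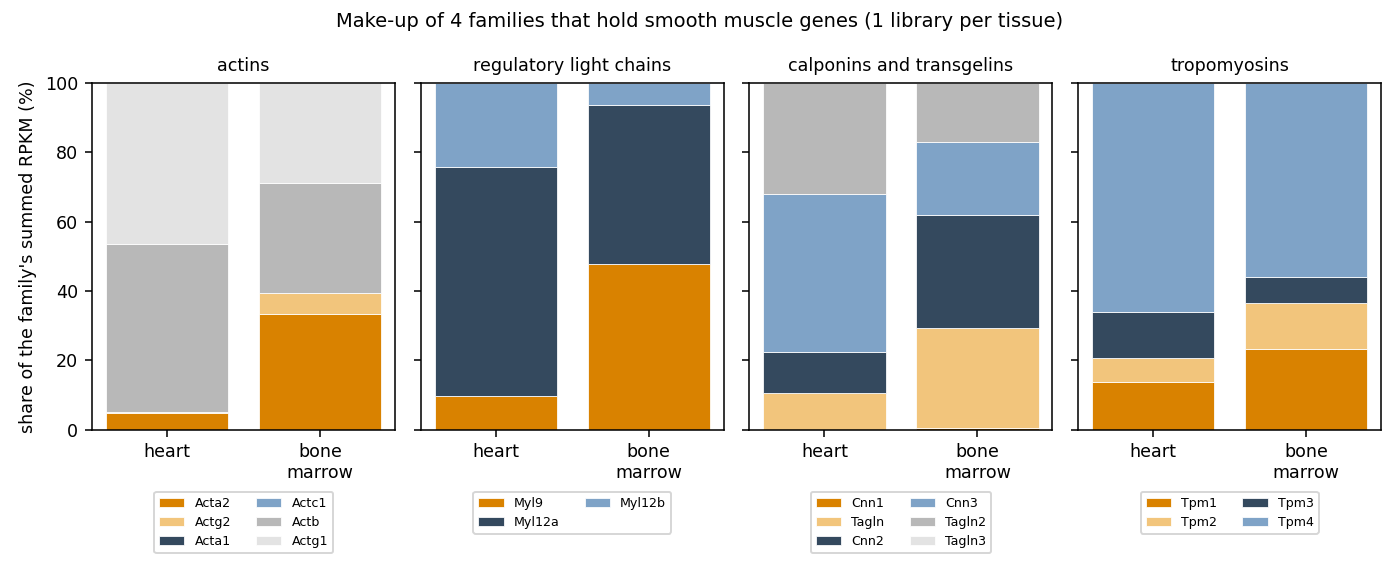
Share of each family's summed RPKM (y axis, percent) by gene, heart left and bone marrow right, 1 library per tissue. Contractile genes are in orange and their relatives in blue and grey. The share of the contractile genes is smaller in heart in all 4 families. It is 5.07% against 39.3% for actins and 9.78% against 47.8% for regulatory light chains. Muscle and non-muscle isoforms of Tpm1 are counted together.

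Other genes typical of smooth muscle were also lower in heart where they were abundant. Of 30 such genes, 13 reached 5 RPKM. The 2-fold rule took 0 of these toward heart and 10 toward bone marrow, and left Pdlim7, Itga7 and Cryab. The 10 became 4 with a floor of 20 RPKM and 6 with a 4-fold threshold. That floor also leaves fewer genes to count, and of those at or above 20 RPKM only Cryab was not counted. A median log2 ratio of -1.12 was found over the 22 that reached 1 RPKM. Csrp2, which encodes a LIM protein of smooth muscle, had 10.1 RPKM in heart against 236 in bone marrow (log2 ratio -4.42). Mylk, which encodes the myosin light chain kinase that acts on the product of Myl9, had 0.866 and 17.5 (-3.31). Fhl1, another LIM protein gene, had 2.17 and 16.5 (-2.46). Hspb1, which encodes a small heat shock protein, had 8.70 and 48.5 (-2.35).

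Not every smooth muscle gene followed. Of the 22 genes of that list at or above 1 RPKM, 4 had a log2 ratio above 0, and they were named after their values were seen. They were the integrin genes Itga8 (1.53) and Itga7 (0.85), Dmd, which encodes dystrophin (0.77), and the calcium channel gene Cacna1c (0.26). None met the rule for a gene higher in heart, Itga8 being under the floor with 3.25 RPKM in heart against 0.475 in bone marrow. The filament gene Des, which encodes desmin, was under 1 RPKM in both, with 0.0205 in heart and 0.345 in bone marrow. Together with Myh11, it places 2 markers of mature muscle near 0 in both cultures.

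SRF and its partners stood closer to equal than the contractile genes. Srf had 7.30 RPKM in heart against 14.6 in bone marrow (log2 ratio -0.91). The gene of its smooth muscle coactivator, Myocd, was listed at 0 in heart and stood at 0.0865 in bone marrow. The related coactivator genes Mkl1 and Mkl2, named after their values were seen, had 4.46 and 4.15 RPKM in heart and 8.36 and 5.08 in bone marrow, both under the 2-fold rule. Of 18 regulators, 2 met the rule toward heart, 2 met it toward bone marrow, and 11 others at or above 5 RPKM did not. Their median was -0.08 over the 17 at or above 1 RPKM, and 0.06 with the median ratio set to 0. Besides SRF and its coactivators, that list holds other factors such as the TEAD genes. Of the 17, 10 had a log2 ratio below 0, Srf, Mkl1 and Mkl2 among them, and 7 had one above 0. Klf4, which encodes a zinc finger factor able to repress smooth muscle genes, had 13.5 RPKM in heart against 103 in bone marrow (-2.83). Fhl2, which encodes an SRF-binding LIM cofactor, had 24.5 and 58.9 (-1.23). Those higher in heart were the MCAT-binding factor gene Tead2, at 11.9 and 4.11 RPKM (1.34), and Wwtr1, which encodes the TEAD coactivator TAZ, at 70.5 and 31.6 (1.13).

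Known targets of SRF, its actin-regulated coactivators or TEAD outside the contractile set leaned the same way as that set. Of 24, the rule took 0 toward heart and 10 toward bone marrow and left 13, and the median was -0.86. With the median ratio of abundant genes set to 0 the 10 became 7, and with a 4-fold threshold 5. Palld, which encodes the actin crosslinker palladin, had 3.29 RPKM in heart against 41.1 in bone marrow (-3.29). The matricellular genes Cyr61 and Ctgf had log2 ratios of -2.93 and -2.58, from 32.4 and 141 RPKM in heart and 254 and 849 in bone marrow. Ankrd1, which encodes an ankyrin repeat protein induced by stretch, had -2.19, and the formin gene Diaph3 had -2.08.

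Genes that control contraction were mostly within 2-fold. Of 24, the rule took 2 toward heart and 3 toward bone marrow and left 15, and the median was -0.27. Rgs2, which encodes a brake on receptor signalling, had 40.2 RPKM in heart against 0.347 in bone marrow (4.93), and its relative Rgs4 had 0.433 and 9.25 (-2.84). Ednra, which encodes the endothelin A receptor, had 32.2 and 1.42 (3.78). The calcium release channel gene Itpr3 had 3.34 and 18.5 (-2.17). Among the 7659 genes at or above 5 RPKM, 7.56% and 9.51% were counted toward heart and toward bone marrow. In this list 20 genes reached that level, and its counts are close to those shares.

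Transforming growth factor beta is a classic inducer of Acta2 and Tagln, and its pathway genes were mixed. Of 15, the rule took 2 toward heart and 5 toward bone marrow and left 8, and the median was -0.23. The shares over the genes at or above 5 RPKM were 7.56% toward heart and 9.51% toward bone marrow. Tgfb1 had 36.1 RPKM in heart against 18.3 in bone marrow, with a log2 ratio of 0.94 that became 1.08 with the median ratio set to 0. Tgfb2 had 2.88 and 16.2 (-2.15). The receptor gene Tgfbr1 had 27.7 and 8.35 (1.62). Ltbp1, which encodes a protein that stores latent TGF-beta, had 2.61 and 27.4 (-2.97). The response gene Smad7 had a log2 ratio of -1.61. Also counted, and named after their values were seen, were Tgfbr3 (1.52) and Tgfb3 (-1.54).

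Genes of myofibroblasts, the matrix-making cells that also use Acta2, went both ways. Of 17, the rule took 5 toward heart and 3 toward bone marrow and left 8, and the median was 0.03. Itga11, which encodes a collagen receptor subunit, had 6.43 RPKM in heart against 156 in bone marrow (-4.40), and the collagen crosslinking gene Lox had 156 and 1288 (-3.04). Col3a1, a fibrillar collagen gene, had 1388 and 129 (3.41). Fap, which encodes fibroblast activation protein, had 6.76 and 0.219 (2.67), and the surface antigen gene Thy1 had 16.7 and 0.0603 (4.06).

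**Figure D5:**
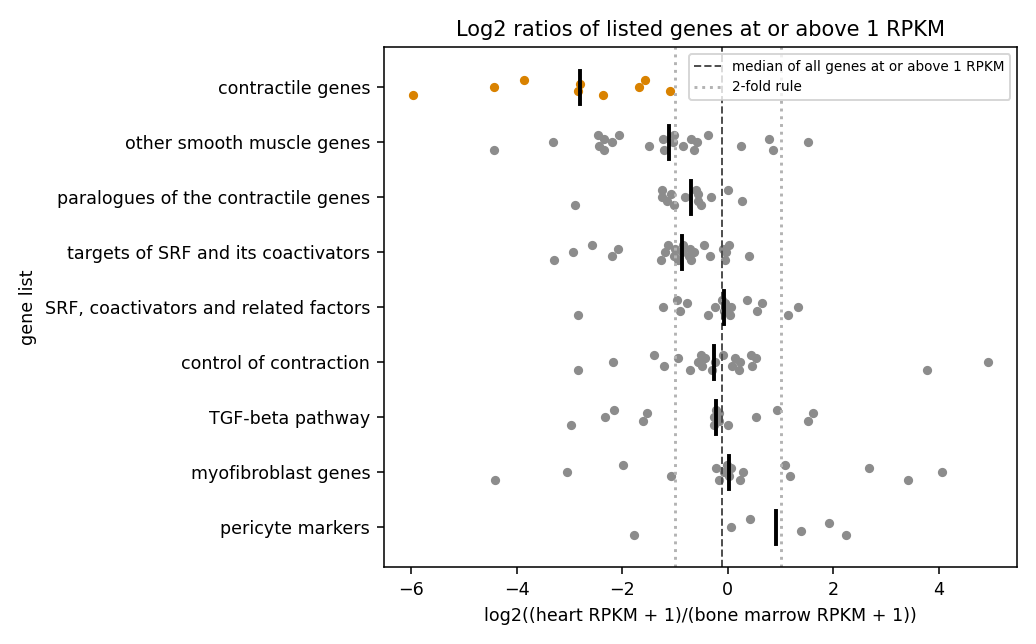
Log2 ratios of heart over bone marrow (x axis) for genes at or above 1 RPKM in either library, by gene list, with each point 1 gene, black bars for list medians, a dashed line at the median of all genes and dotted lines at the 2-fold rule. The 9 contractile genes shown lie left of the lower 2-fold line, Smtn not so with the median ratio set to 0 (-0.95), and have a median of -2.81, where the other lists have medians between -1.12 and 0.91.

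The genes whose ratio came closest to that of Acta2 were sought among the 385 other genes at or above 100 RPKM in bone marrow. Likeness here is the distance between log2 ratios over 2 libraries, a weak measure. The nearest were Csrp2 and Itga11, at distances of 0.02 and 0.03. Next came Myl9 at 0.58, the collagen gene Col12a1 at 0.91 and the thrombospondin gene Thbs1 at 1.00. Of the 385, 5 had a more negative ratio than Acta2.

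Markers of cardiac and skeletal muscle were mostly near 0, while pericyte markers were split. Of 15 cardiac muscle markers, 0 reached 1 RPKM in heart and 1, Tnnc1, reached it in bone marrow, with summed levels of 2.09 RPKM in heart against 2.71 in bone marrow. No skeletal muscle marker of 11 reached 1 RPKM, and their sums were 1.99 and 0.809. Among 11 pericyte markers, 6 reached 1 RPKM in either library and 5 did not. Rgs5, Kcnj8 and Abcc9 were among those under 1 RPKM (0.0339, 0.0302 and 0.00736 in heart, and 0.0611, 0 and 0.00442 in bone marrow). Their list had 3 genes counted higher in heart and 1 in bone marrow, with a median of 0.91 over the 6 at or above 1 RPKM and sums of 187 RPKM in heart against 153 in bone marrow. Those in heart were Ndufa4l2 (2.25), Cspg4 (1.91) and Notch3 (1.38), and the one in bone marrow was Mcam (-1.77). Anpep had 0.43.

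Of 8 endothelial markers, 2 reached 1 RPKM in either library, and they went opposite ways. Erg had 6.06 RPKM in heart against 0.299 in bone marrow (log2 ratio 2.44), and Vwf had 0.00768 and 1.13 (-1.08), under the floor of 5 RPKM. Cdh5 had 0.00734 and 0.00441. The sums of that list were 7.02 and 1.67. Of 9 haematopoietic markers, Cd53 (4.80 RPKM in heart against 1.03 in bone marrow) and Cd14 (2.97 and 2.79) reached 1 RPKM in each library. That list summed to 7.88 and 3.98, and Ptprc was listed at 0 in heart and at 0.00469 in bone marrow. The cardiac, skeletal, endothelial and haematopoietic sums stood at or under 7.88 RPKM, where the contractile genes summed to 159.8 in heart and 1675 in bone marrow. Cd53 and Cd14, and the stromal genes that follow, were named after their values were seen, as was Vwf. For the label of mesenchymal cells, the stromal receptor gene Pdgfrb had 139 RPKM in heart against 133 in bone marrow. Pdgfrb is also on the pericyte list and makes up most of its sums. Pdgfra had 27.6 and 11.6, while the stromal antigen gene Thy1 was near 0 in bone marrow, as given above. The part of any rarer cell type in the contractile values was not tested.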

How the data were processed

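The RPKM values were deposited by the authors, 1 table per tissue, per the file headers. Per the labels' protocols, each library was a standard Illumina preparation from total RNA of cultured cells. For the aligner, the counting tool and strand use, the answer is not given in the sources used here. The submitters' processing notes name mm8, but 91.1% of 49585 rows have the position and strand of a GENCODE M21 gene on GRCm38, and coordinates are read on that build.

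Read totals and reads per gene were recovered from the RPKM values and exon-union lengths. In 86.2% of 14255 genes with a known length and reads in both tissues, the values were whole to within 0.02 reads. Acta2 and Myh11 differ in extent from their GENCODE genes. The lengths that gave whole reads were used, 1781 bases (1 of 3 candidates) and 6632 bases (1 of 9). Ratio intervals are exact conditional (Clopper-Pearson) 95% intervals. Reads are not independent molecules, so intervals cover counting error only.

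Symbols on several rows kept the row with the highest mean. Of 218 listed symbols, 217 were found. Promoters came from RefSeq (GRCm38.p6). The source held 32851 promoters for 27025 symbols. Only the first of each symbol was used, so motifs at other starts of a gene were not searched. Named genes are the 10 members, all relatives, up to 5 genes per other list with the largest log2 ratios at or above 5 RPKM, and genes that define a list; a few that this rule names are not reported here. Members, lists and rules were chosen with earlier results of these data known. Alternatives covered the pseudocount, floor, threshold, scaling, repeated rows and promoter window. Analyses ran in Python 3.11.15 with pandas 2.3.3, numpy 2.4.6, matplotlib 3.10.9 and scipy 1.17.1, and were tested on simulated data.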

Additional observations from a re-analysis of the deposited data

How the results depend on the processing

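The count of contractile genes higher in bone marrow stayed between 7 and 9 of 10 under every alternative except a 4-fold threshold, which left 5, and the count higher in heart was 0 under all of them. Each of the 10 genes kept a log2 ratio below 0 in all 7 settings of pseudocount, scaling and repeated rows, but these settings could not have changed the sign. The pseudocount never changes it, and the scalings shift log2 ratios by at most 0.15, less than the smallest gap of 2.24-fold. Summing repeated rows left the values of the 10 genes unchanged. Their median of -2.81 became -3.95 with a pseudocount of 0.1, -1.53 with one of 5, -2.66 with the median ratio set to 0, -2.72 with upper quartile scaling, -2.73 with trimmed mean scaling and -2.58 with Myh11 kept. Over all genes, 383 toward heart and 424 toward bone marrow were counted with a pseudocount of 5, 263 and 315 with a floor of 20 RPKM, and 257 and 229 with a 4-fold threshold. With a floor of 1 RPKM or none, 883 were higher in heart and 1052 in bone marrow. The floor also sets how many genes can be counted, 7659 at 5 RPKM and 11357 at 1 RPKM. For a floor of 20 RPKM or none that number is not given here, so those counts have no share beside them. At floors of 20, 5 and 1 RPKM, every contractile gene that reached the floor was counted higher in bone marrow. With the 250 bases before the start alone, the motif counts of the 7 member windows were the same, while the shares of all promoters became 18.9% for at least 1 CArG box with at most 1 change, 3.04% for 2 or more and 12.6% for the MCAT element. Of the other smooth muscle genes, 7 were counted higher in bone marrow with a pseudocount of 5, and 8 under each of the 3 scalings. No paired analysis was possible because each tissue has 1 library, and none could be left out. Depth limits Cnn1 in heart, with 2 reads, and Myh11 in both libraries.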
